A study of Homo sapiens with 6 samples.

Results

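UBE3C and 8 other HECT ubiquitin ligases (UBE3A, UBE3B, HECTD2, HECTD3, HECTD4, HUWE1, TRIP12 and HACE1) were followed through a knockdown of the TET enzymes in human HEK293 cells. They were taken as all probe sets of the array whose only annotated gene is one of these 9, which gave 39 of 54613 probe sets, for 9 of 19775 genes named on the array. UBE3C was picked because earlier results of these same data placed it among the genes with the smallest p-values for TET siRNA against non-targeting siRNA, and the others were picked as its relatives with those results known. Differences between the siRNA groups are therefore given for the 9 genes as descriptions, and counts of limma calls in that comparison stand beside those of all probe sets with nothing read from them. RNA came from Flp-In T-REx 293 cells, a HEK293 derivative with a site for inserting a transgene, and was read on 6 Affymetrix arrays. In all groups the cells held a GFP transgene of the inducible kind, which was not switched on. In 3 arrays the cells had received siRNAs against TET1, TET2 and TET3 together, and in the other 3 they had received pooled siRNAs without a target. The cells were harvested after 96 h. The labels name the same 3 GFP clones in both groups, so each clone had 1 array per treatment and the groups were compared within clones. The replicates are clones of a single cell line. The SEs come from the limma fit and reflect how far the siRNA difference varied between these clones. Their variance is drawn toward that of other probe sets of like brightness, so an SE is not the bare spread of 3 values.

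HECT ligases take ubiquitin from an E2 enzyme onto a cysteine of their own HECT domain and then pass it to a substrate, whereas RING ligases only bring the E2 and the substrate together. UBE3C is known for lengthening ubiquitin chains on proteins that are already bound to the proteasome. TET1, TET2 and TET3 oxidise 5-methylcytosine, which in DNA of human cells lies mostly at CG dinucleotides.

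The targeted transcripts were lower: the brightest probe sets of TET1, TET2 and TET3 differed by -2.48, -1.10 and -1.22 on the log2 scale, each lower in 3 of 3 clones. The arrays shared a trimmed mean signal of 1000.1. Across tested probe sets, log2 signals of any 2 arrays correlated at 0.972 to 0.986. Both arrays of clone 1 lay outside the range of the other 4 at 34.6% of tested probe sets. This share was not computed for clones 2 and 3. All 5 markers fixed for HEK293 cells (PAX2, VIM, KRT18, NEFM and LIN28B) lay above the brightness filter, a geometric mean signal of 117. Of the markers of other cell types, 2 of 5 for fibroblasts (COL1A1 and LUM) and 1 of 4 for blood cells (CD79A) did so. The summed signal was 1182 to 1478 under TET siRNA and 1381 to 1694 in control for the fibroblast markers, and 463 to 531 and 453 to 578 for the blood markers, in the same order, so that in both lists the groups overlapped. Their part in the results was not tested.

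Because the silenced enzymes act on methylated CG, the DNA just upstream of the members' start sites was examined. RefSeq (GRCh38.p14) gave 17 start sites for the 9 genes, and the 250 bases before each were taken, some of which overlap. These windows held 4 to 44 CG dinucleotides with a median of 25, against a median of 11 over 35116 windows of all genes, of which 93.9% held at least 1. The window of UBE3C (chr7:157138676-157138925, plus strand) held 42, more than 98.6% of all windows. That of HECTD3 (chr1:45011325-45011574, minus strand), which like UBE3C has a single start site in the table, held 5. Both extremes, 4 and 44, were windows of HECTD2. Whether CG content goes with the siRNA difference was not tested. The UBE3C and HECTD3 windows are shown to set a CG-rich start beside a CG-poor one, 5′ to 3′, with each CG in capitals.
UBE3C: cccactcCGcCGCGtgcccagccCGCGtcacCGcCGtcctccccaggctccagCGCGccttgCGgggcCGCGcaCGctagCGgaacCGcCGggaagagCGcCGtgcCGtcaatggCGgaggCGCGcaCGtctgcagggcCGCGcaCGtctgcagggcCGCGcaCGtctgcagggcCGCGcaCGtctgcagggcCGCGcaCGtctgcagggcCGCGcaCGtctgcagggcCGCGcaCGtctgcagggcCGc
HECTD3: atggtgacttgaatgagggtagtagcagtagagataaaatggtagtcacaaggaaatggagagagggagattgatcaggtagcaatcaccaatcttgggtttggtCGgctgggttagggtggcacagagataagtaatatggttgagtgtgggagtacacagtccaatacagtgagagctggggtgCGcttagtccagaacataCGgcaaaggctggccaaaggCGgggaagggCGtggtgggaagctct

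The UBE3C window ends in a tandem repeat. The 18-base unit CGCGCACGTCTGCAGGGC, which holds 3 CG dinucleotides, stands in 7 exact copies side by side over 126 bases. Searched on both strands, the unit was found in 1 of 35116 windows (0.00285%), that of UBE3C. No methylation was measured on these arrays, so the letters describe the reference sequence and not its state in these clones.

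UBE3C had 5 probe sets, and 1 of them was called in limma with the clone block. At 201817_at the signal was 4119, 4307 and 4174 in clones 1, 2 and 3 under TET siRNA, and 7303, 6442 and 6450 in the same clones under non-targeting siRNA. The lowest control array lay well above the highest TET siRNA array, so the groups did not overlap, as at 12.7% of all tested probe sets. The means were 4199.9 ± 96.9 and 6732 ± 495 (SD, n = 3 each), and the level left was 56.4, 66.9 and 64.7% of control in clones 1, 2 and 3. The difference was -0.68 on the log2 scale (SE 0.07), or 62.5% of control, and 1.87% of the 27306 tested probe sets differed by more in either direction. It was -0.60 without clone 1. UBE3C was picked on this comparison, so its size, rank and lack of overlap are descriptions. In limma 201817_at was not called without the clone block (adjusted p = 0.0683), nor with moderation that uses neither a variance trend nor robust fitting. In a bulk sample such as these, fewer cells with the transcript and less transcript per cell cannot be told apart.

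The other UBE3C probe set bright enough to test did not show this. At 1554794_a_at the signal was 566, 358 and 419 under TET siRNA and 532, 409 and 422 in control, for clones 1, 2 and 3. The groups overlapped, and clone 1 was the highest in both. The difference was -0.04 (SE 0.15), higher in clone 1 and lower in clones 2 and 3. Both probe sets were read on the same arrays, so the gap between them lies between probes of 1 gene and not between samples. Which UBE3C transcripts each probe set reads was not checked here, so it is not known whether they read the same ones.

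The remaining 3 UBE3C probe sets lay below the filter on mean signal. At 1555405_at the signal was 34.3, 15.8 and 42.3 under TET siRNA and 3.26, 6.79 and 2.77 in control, so here the groups did not overlap and the TET siRNA arrays were higher. These signals are near the bottom of the array, with only 7.13% of probe sets dimmer on average, and the log2 difference of 2.85 had an SE of 0.88. The probe sets 1554793_at (0.08, SE 0.46) and 243519_at (1.43, SE 0.86) overlapped between the groups. The plot of UBE3C signals shows the 5 probe sets together.

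**Figure D1:**
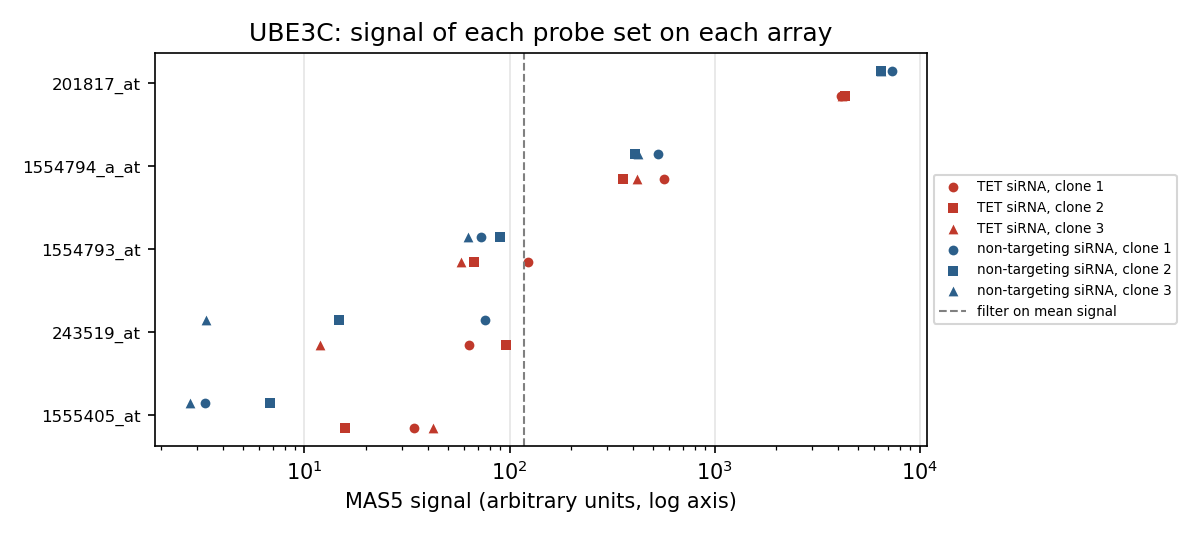
MAS5 signal (log axis, arbitrary units) of the 5 UBE3C probe sets on each of the 6 arrays; colours mark the siRNA, symbols mark the clone, and the dashed line is the filter at a geometric mean signal of 117. At 201817_at all 3 TET siRNA arrays (4119 to 4307) lie below all 3 control arrays (6442 to 7303), at 1554794_a_at the groups overlap, and at 1555405_at, far below the filter, the TET siRNA arrays lie higher.

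UBE3A and UBE3B, which share the name stem of UBE3C, lay near control. UBE3A is the ligase that the papillomavirus protein E6 turns against p53, and it is imprinted in neurons. Its probe set 211285_s_at had signals of 9162, 8887 and 9335 under TET siRNA and 9310, 9047 and 9238 in control, all within a factor of 1.05 of each other. The groups overlapped there and at all other UBE3A probe sets. The differences of the first 4 of its 5 tested probe sets were between -0.06 and 0.01 on the log2 scale, each with an SE of 0.06 to 0.08. The fifth, 214980_at, read 151, 161 and 174 against 104, 161 and 156, a difference of 0.23 (SE 0.27) that came mostly from the low control array of clone 1.

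UBE3B is a ligase whose loss causes a syndrome with intellectual disability. Its signals at 213822_s_at were 1332, 1744 and 1661 under TET siRNA and 1375, 1736 and 1863 in control. At 212403_at they were 1156, 1104 and 1019 against 1312, 994 and 1134. The groups overlapped at both probe sets, and the differences were -0.07 (SE 0.09) and -0.06 (SE 0.11).

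Of the HECTD ligases, HECTD2 read higher in every clone at both of its tested probe sets. Its probe set 227568_at read 3515, 2740 and 3009 under TET siRNA and 3104, 2398 and 2389 in control. The groups overlapped because the clone 1 control was above both other TET siRNA arrays, although each clone was higher than its own control. At 238803_at the signals were 1365, 1155 and 1184 against 1084, 1098 and 1016, and the groups did not overlap. The differences were 0.23 (SE 0.08) and 0.21 (SE 0.11).

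HECTD3, a regulator of cell death signalling, had signals of 300.4, 238 and 245 against 282, 255 and 248 at its only probe set, a difference of -0.01 (SE 0.19). HECTD4, among the largest proteins of the family, had signals of 1289, 1675 and 1813 against 1277, 1506 and 1590 at 211034_s_at, with every clone a little higher and the groups overlapping (0.12, SE 0.09).

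HUWE1, a very large ligase whose substrates include the survival factor MCL1, gave different values at its 3 tested probe sets. At 208598_s_at the signals were 4263, 5677 and 5645 under TET siRNA and 4974, 5747 and 5979.8 in control, lower in every clone, with a difference of -0.11 (SE 0.07). At 236294_at they were 543, 806 and 659 against 486, 622 and 594, higher in every clone, with a difference of 0.23 (SE 0.13). At 207783_x_at, a type that can cross-hybridise with other transcripts, the difference was 0.0064 (SE 0.10). The groups overlapped at all 3, and the signs of the first pair are opposite, so no direction for the gene can be read from them.

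TRIP12, a nuclear ligase that targets the tumour suppressor ARF, had signals of 6212, 5865 and 6224 under TET siRNA and 6413, 5451 and 5636 in control at 201546_at. Its 3 probe sets differed by 0.07 (SE 0.07), 0.09 (SE 0.09) and 0.13 (SE 0.21), and none had the same sign in all clones. HACE1, which marks active RAC1 for degradation, had signals of 2665, 2918 and 3071 against 2610, 2961 and 2414 at its only probe set, a difference of 0.12 (SE 0.09) that came mostly from clone 3.

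**Figure D2:**
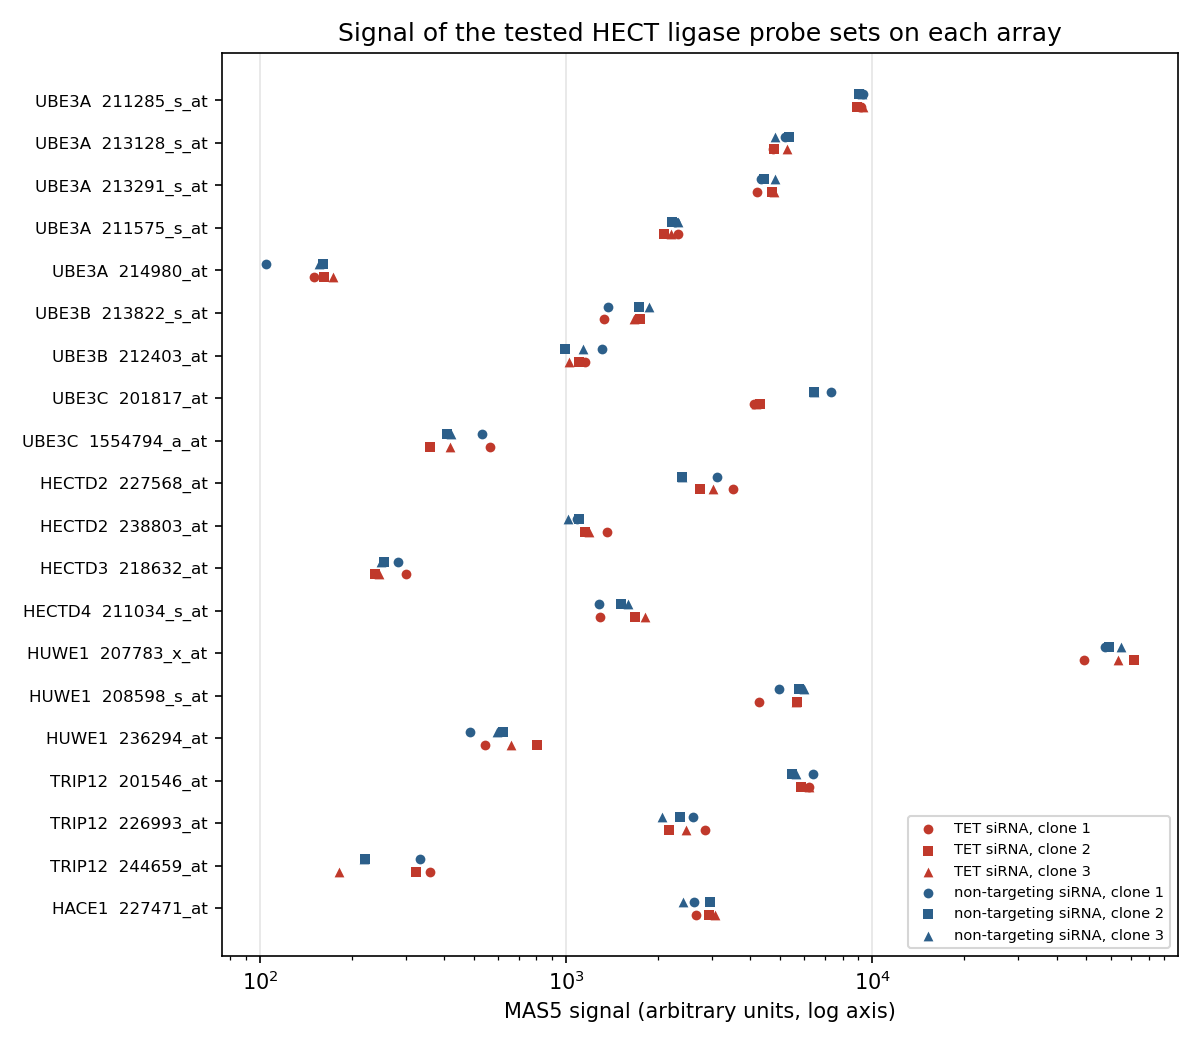
MAS5 signal (log axis, arbitrary units) of the 20 tested HECT ligase probe sets on each of the 6 arrays, with colours for the siRNA and symbols for the clone. The groups are separate at UBE3C 201817_at and HECTD2 238803_at and overlap at the others; signals of different probe sets are not comparable as levels.

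Over the 9 genes, 20 of 39 probe sets passed the filter on mean signal, with at least 1 for each gene. In limma with the clone as a block and Benjamini-Hochberg adjustment over all 27306 tested probe sets, 1 of the 20 was called at an adjusted p under 0.05, UBE3C 201817_at, where 1.03% of all tested probe sets were called (0.648% as lower and 0.385% as higher). Of the 18 probe sets of the other 8 genes, 0 were called in limma, and 1 (HECTD2 227568_at) had an unadjusted p under 0.05. Since UBE3C was chosen on this contrast, and the others with its results known, nothing is read from these counts. The 20 differences ran from -0.68 to 0.23 with a median of 0.0072, and over all tested probe sets the median was 0.02. The groups did not overlap at 2 of the 20, beside 12.7% of all tested probe sets. The sign was the same in 3 clones at 7 of the 20, beside 36.2%. Without the clone block 0 of the 20 were called in limma, beside 0.0146% of all, with 1 at an unadjusted p under 0.05, and with plain moderation, which uses neither a variance trend nor robust fitting, 0 were called among the members (1 at an unadjusted p under 0.05) or among all probe sets (3355).

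**Figure D3:**
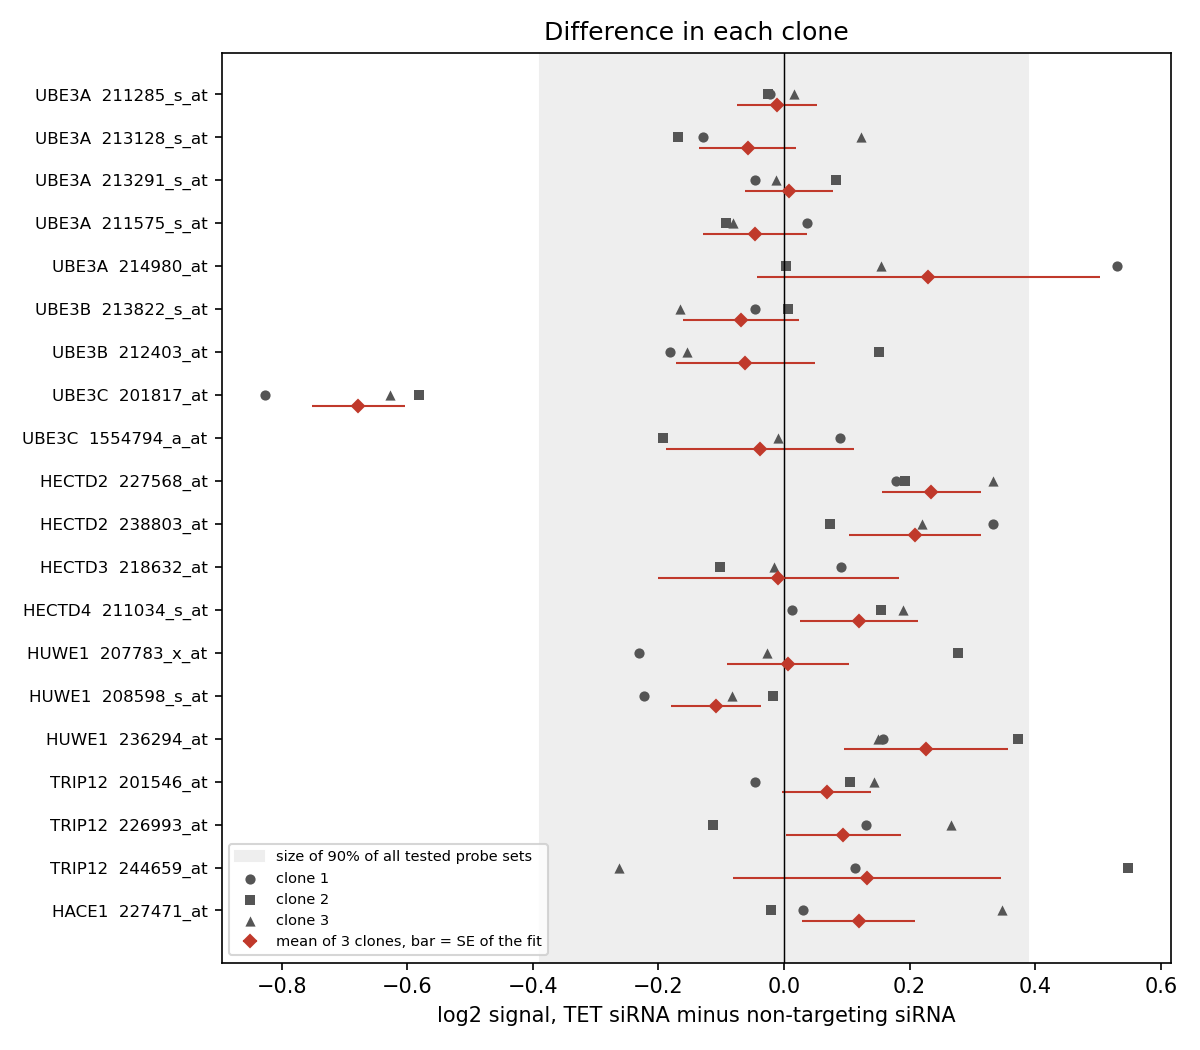
Difference in log2 signal, TET siRNA minus non-targeting siRNA, at the 20 tested HECT ligase probe sets in each clone (grey symbols) and as the mean of the 3 clones with the SE of the fit (red). The grey band holds 90% of all tested probe sets (size up to 0.39); UBE3C 201817_at at -0.68 lies outside it and all other means lie inside.

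The 19 member probe sets below the filter were noisy. At 2 of them the groups did not overlap, beside 10.1% of all probe sets below the filter. One was UBE3C 1555405_at, given above, and the other was HECTD4 1561130_at, with 57.9, 120 and 62.6 under TET siRNA and 13.9, 7.35 and 8.65 in control for clones 1, 2 and 3 (2.98, SE 0.79). Both were higher under TET siRNA, while the tested HECTD4 probe set differed by 0.12. In the fit with no filter neither was called, and UBE3C 201817_at remained the only member probe set called.

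A comparison that played no part in choosing the genes is that between the clones, where the members' share of calls was near that of all probe sets. With the treatment in the limma fit, clone 1 (2 arrays) was compared with the mean of clones 2 and 3 (4 arrays). It was called different at 4 of the 20 member probe sets, beside 14.1% of all tested probe sets, with 3 lower and 1 higher in clone 1. In limma these calls fell to 0 with no filter on dim probe sets (10 at an unadjusted p under 0.05), with plain moderation (7), and with 3 of the 6 arrays when left out singly (2, 6 and 6). On 2 looser counts the members lay further from all probe sets. Both clone 1 arrays lay outside the other 4 at 13 of the 20, beside 34.6%. An unadjusted limma p under 0.05 was found at 9 of the 20, beside 8064 of all 27306. Probe sets of 1 gene are not independent, so nothing is read from these counts. Clone 1 is a single clone, so the comparison is between these clones and not of a condition.

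HUWE1 was called as lower in clone 1 at 1 of its 3 tested probe sets. At 208598_s_at the clone 1 arrays read 4263 (TET siRNA) and 4974 (control), below all 4 others at 5645 to 5979.8, a log2 difference of -0.32 (SE 0.08, limma adjusted p = 0.0168). The other HUWE1 probe sets had the same sign, -0.28 at 207783_x_at (limma adjusted p = 0.0955) and -0.37 at 236294_at (limma adjusted p = 0.0957), and did not pass. Under quantile normalization the difference at 207783_x_at shrank to -0.06 (limma adjusted p = 0.387, range over the alternatives 0.0938 to 0.387). Before that normalization, both clone 1 arrays lay below the other 4 at each of the 3.

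UBE3B 213822_s_at was also called as lower in clone 1, at 1332 and 1375 against 1661 to 1863 in the other arrays (-0.37, SE 0.10, limma adjusted p = 0.0282). Its other tested probe set, 212403_at, had the opposite sign (0.21, SE 0.12, limma adjusted p = 0.252), with both clone 1 arrays above the other 4, so the lower value holds for that probe set and not for the gene. HECTD4 211034_s_at read 1277 and 1289 in clone 1 against 1506 to 1813 elsewhere (-0.36, SE 0.10, limma adjusted p = 0.0361). HECTD2 227568_at was the probe set called as higher, with 3104 and 3515 in clone 1 against 2389 to 3009 (0.33, SE 0.08, limma adjusted p = 0.0221).

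At UBE3C neither tested probe set was called between clones. The probe set 201817_at, with the large siRNA difference, differed by 0.07 between clone 1 and the others (SE 0.08, limma adjusted p = 0.608). The probe set 1554794_a_at, with almost no siRNA difference, differed by 0.45 (SE 0.16), with both clone 1 arrays above the other 4, and did not pass (limma adjusted p = 0.0815). The 3 TRIP12 probe sets were all higher in clone 1 (0.13, 0.27 and 0.59) and none passed (limma adjusted p 0.0937 to 0.294). The first 4 UBE3A probe sets differed by -0.13 to 0.06.

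Over 5 alternatives of filter, scale and moderation the adjusted p ranged from 0.0125 to 0.159 for HUWE1 208598_s_at, 0.0218 to 0.13 for UBE3B 213822_s_at, 0.0278 to 0.138 for HECTD4 211034_s_at and 0.0169 to 0.146 for HECTD2 227568_at. The number of limma calls among the 20 was 0 without TET siRNA replicate 1, control replicate 1 or control replicate 3 (2, 6 and 6 at an unadjusted p under 0.05, as given above), 1 without TET siRNA replicate 3, 5 without TET siRNA replicate 2 and 7 without control replicate 2.

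**Figure D4:**
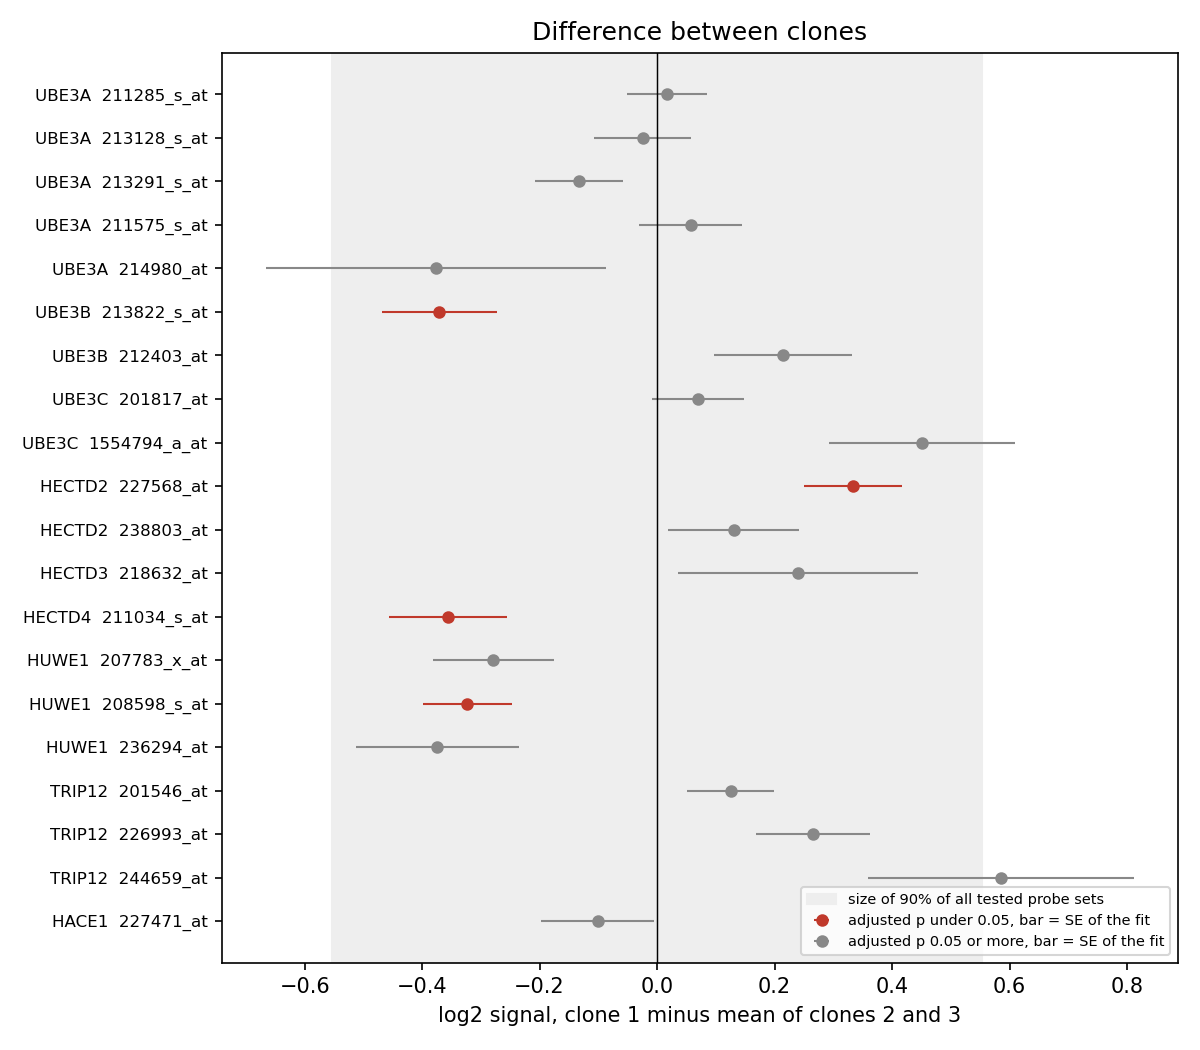
Difference in log2 signal of clone 1 minus the mean of clones 2 and 3 at the 20 tested HECT ligase probe sets, with the SE of the fit; red points have a limma adjusted p under 0.05 over all tested probe sets. HUWE1 208598_s_at (-0.32), UBE3B 213822_s_at (-0.37) and HECTD4 211034_s_at (-0.36) are lower and HECTD2 227568_at (0.33) is higher in clone 1, while UBE3C 201817_at is near 0.

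Genes around these ligases gave no call in the siRNA comparison, where 1.32% of 12318 genes, each taken at its brightest probe set, were called. Of 19 other HECT ligases (the NEDD4 and HERC families and single members) 16 were measured, 8 higher and 8 lower, with a median of 0.02 beside 0.0070 over all genes. At these brightest probe sets 0 were called in limma, and 0 had an unadjusted p under 0.05. Other probe sets could differ more. All tested ITCH probe sets were positive, from 0.08 at the brightest to 0.26 (SE 0.10) at 217094_s_at and 0.39 (SE 0.21) at 236235_at. All tested SMURF2 probe sets were negative, from -0.01 at the brightest to -0.28 (SE 0.14) at 227489_at. ITCH and SMURF2 were picked after the values were seen, because their signs agreed. The tested probe sets of HERC4, NEDD4L, SMURF1, WWP1, WWP2 and G2E3 had mixed signs. The largest difference, -0.47 (SE 0.56), was at SMURF1 232665_x_at. None of these passed (lowest limma adjusted p = 0.268). HERC5, an interferon-induced ligase for the ubiquitin-like ISG15, read 4291 ± 122 under TET siRNA and 4715 ± 191 in control (SD over 3 arrays), a difference of -0.14 (SE 0.07). NEDD4L, which controls the epithelial sodium channel, differed by 0.19 (SE 0.12).

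Of 11 E1 and E2 enzymes that feed HECT ligases, 7 were measured with a median of 0.08, and 0 were called in limma, also 0 at an unadjusted p under 0.05. UBE2L3, UBE2D1, UBE2D2 and UBE2D3 were not among those measured, so nothing is known here of these E2 enzymes. UBE2E2 differed by 0.16 (SE 0.09) and UBE2D4 by -0.16 (SE 0.11). Of 9 substrates and partners of the members, 7 were measured with a median of 0.02, 0 called and 0 at an unadjusted p under 0.05. The adaptors NDFIP1 and NDFIP2, which recruit ligases of the NEDD4 family, differed by -0.07 (SE 0.07) and 0.09 (SE 0.09).

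Subunits of the proteasome, where UBE3C works, had mostly small negative differences. Of 28 measured, 22 had a negative difference (78.6%, beside 48.1% of all genes), with a median of -0.04 and none beyond -0.18 or 0.09. In limma 0 were called, and 3 had an unadjusted p under 0.05 (1 without the clone block). PSMA5, of the core particle, read 11339 ± 709 under TET siRNA and 12835 ± 448 in control (SD over 3 arrays), a difference of -0.18 (SE 0.07). PSMC2, an ATPase of the regulatory particle, read 23067 ± 1452 and 25856 ± 1735, a difference of -0.16 (SE 0.07). Both were lower in 3 of 3 clones. The difference was negative in all 3 clones at 8 of 28 proteasome genes, beside 18% of all genes. These subunits are bright, with 88.3% (ADRM1) to 99.5% (PSMB1) of probe sets dimmer, while the shares of all genes cover every brightness above the filter. Neither share was set against genes of like brightness or recomputed under quantile normalization, so an offset of bright probe sets was not tested.

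No gene next to UBE3C on its chromosome was called in the siRNA comparison. In the gene table (used for the order and spacing of genes alone) the 3 nearest protein-coding genes with a tested probe set were MNX1, NOM1 and LMBR1 on one side and DNAJB6, PTPRN2 and NCAPG2 on the other. They lay between 67.6 kb (DNAJB6) and 1362 kb (NCAPG2) from UBE3C. Their differences were -0.09, -0.08, 0.01, -0.23, 0.22 and -0.02 in that order, and the limma adjusted p was 0.290 to 0.971. MNX1, NOM1 and DNAJB6, 3 of the 6, were lower in 3 of 3 clones, beside 18% of all genes at their brightest probe set. DNAJB6, a chaperone cofactor and the nearest on its side, had signals of 2085, 1235 and 1503 under TET siRNA and 2283, 1627 and 1687 in control, with overlapping groups (SE 0.09).

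The genes most like UBE3C 201817_at over the 6 arrays were sought by the root mean square difference of log2 signal, after each probe set had been centred on its own mean. Among 12317 other genes, each at its brightest probe set, the median of this distance was 0.39. The nearest were C1orf122 (0.04), BAGE2 (0.06), RPN2 (0.06), NFATC2IP (0.06) and EDEM1 (0.07). All 5 were lower under TET siRNA in 3 of 3 clones, by -0.67, -0.65, -0.64, -0.61 and -0.63 in that order. This follows from the way they were sought. C1orf122 read 2748, 2840 and 2876 under TET siRNA and 4750, 4274 and 4493 in control. Clone 1 was the highest of its control arrays and the lowest of its TET siRNA arrays, as at UBE3C 201817_at. The search over these same 6 arrays selects for such a likeness, so nothing is read from it.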

How the data were processed

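Biotin-labelled RNA of 6 samples was read on Affymetrix arrays with a single colour, per the labels' protocols. The authors deposited linear intensities, which are MAS5 signals per the submitters' processing notes and were scaled array by array, as the values show. The sources used here name no MAS5 version, and detection calls and scan batches were not analysed here. MAS5 leaves dim probe sets noisy. No further normalization was applied. Of 54675 probe sets, 62 controls were left out. Platform annotation gave 1 gene for 41091, several for 1801 and none for 11721, and 41037 were updated by Entrez ID to the symbols of RefSeq (GRCh38.p14).

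Log2 signals of the upper 50% of probe sets by mean over all arrays (27306, geometric mean signal at least 117) were fitted in limma 3.58.1 (R 4.3.3) with treatment and clone, trended and robust moderation, two-sided, Benjamini-Hochberg adjusted over all tested probe sets, threshold 0.05. Values of probe sets below the filter come from the same fit without it. Errors after ± are SDs over 3 arrays. The clone number pairs arrays because the labels name the clone: deviations of same-clone arrays correlated at 0.493, 0.234 and 0.236. Those of different clones correlated at -0.372 to 0.219. The highest of these, TET siRNA clone 2 with control clone 3, was close to the same-clone values of clones 2 and 3. The members and gene lists were chosen with earlier results of these data known. Named genes are the 9 members, up to 4 called or else the 2 of smallest p in each list, 3 neighbours on each side and the 5 nearest genes. Outside this rule, ITCH, SMURF2, HERC4, SMURF1, WWP1, WWP2 and G2E3 were named for the signs of their probe sets, after the values were seen. The number of arrays limits the precision. The steps were tested on simulated data. Plots were drawn with matplotlib 3.10.9.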

Additional observations from a re-analysis of the deposited data

How the results depend on the processing

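The siRNA comparison called 282 probe sets with the replicate block, 4 without it, 70 without the brightness filter, 0 with plain moderation in limma (3355 at an unadjusted p under 0.05) and 63 to 684 without a clone. The members' count of 1 became 0 without the replicate block and with plain moderation, and UBE3C 201817_at was called in the other 7 of 9 alternatives; its difference ranged from -0.73 to -0.60. With the block, leaving out 1 array removes its clone from the siRNA comparison, so whole clones were left out. The clone comparison called 3849 probe sets, 1926 with no filter, 13 with plain moderation and 1005 to 5934 with an array left out; for the members the 4 calls became 0 with no filter, 0 with plain moderation and 0 to 7 with an array left out. Under quantile normalization HECTD4 211034_s_at missed the threshold (adjusted p = 0.0527, range 0.0278 to 0.138). The pathway lists had 0 calls with the replicate block, without it, and with the mean of a gene's probe sets. Causes of these changes were not tested. Without detection calls, dim probe sets have no measured background.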
